A study of Homo sapiens with 12 samples.

Results

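Compared here are a pair of HEK293 lines that had both received dexamethasone and 15d-PGJ2: 3 arrays of GR3KR cells against 3 arrays of wtGR cells, chosen by their titles, out of 12 arrays in the series. HEK293 cells derive from human embryonic kidney. Both lines are isogenic, one stably expressing a glucocorticoid receptor that cannot be SUMOylated (GR3KR) and the other the wild-type receptor (wtGR), so each receptor form is represented by 1 line. Every sample had 100 nM dexamethasone, also the 6 arrays without 15d-PGJ2 (3 GR3KR and 3 wtGR) that are used below as a repeat of the line comparison. The 6 arrays compared had 5 µM 15d-PGJ2 as well, both for 6 h. No sample went without dexamethasone, and whether a group's 3 arrays are separate cultures is not stated. The p-values therefore weigh differences only against the spread of these samples, which may be technical.

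The glucocorticoid receptor is a ligand-activated transcription factor that is held ready for hormone by the heat shock protein machinery and, with dexamethasone bound, raises or lowers transcription at its target genes. SUMO, a small protein attached to lysines, restrains the receptor on some promoters, and GR3KR has the acceptor lysines replaced. 15d-PGJ2 is an electrophilic prostaglandin that modifies cysteines and is known to call up heat shock, oxidative stress and amino acid stress genes, and it also binds the nuclear receptor PPARG.

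Expression was read as bead signals on Illumina BeadChips, background corrected and quantile normalised (neqc) to a log2 scale on which values near 4.5 are background. The GR3KR arrays with 15d-PGJ2 stood apart from the other 9. They detected 15223, 14207 and 17032 probes (detection p under 0.01), against 19682, 18896 and 18936 on the wtGR arrays with 15d-PGJ2. The other 6 arrays detected between 17959 and 19950. Over the 12337 genes tested, GR3KR arrays 1 and 2 with 15d-PGJ2 correlated at r = 0.968 with each other and at 0.88 and 0.917 with GR3KR array 3. The wtGR arrays 1 and 2 with 15d-PGJ2 correlated at 0.995 with each other and at 0.97 and 0.969 with wtGR array 3. On some probes that wtGR array 3 was near background where arrays 1 and 2 were bright, as on a PSMC4 probe (5.16, against 11.58 and 11.66). wtGR array 3 with dexamethasone alone also departed from its group: across genes, its difference from wtGR arrays 1 and 2 correlated at r = 0.646 (Spearman 0.542) with the line difference under 15d-PGJ2, although the compared arrays are not the same. The main results below are therefore set beside GR3KR array 3, the arrays with dexamethasone alone or the shift of that wtGR array.

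**Figure D1:**
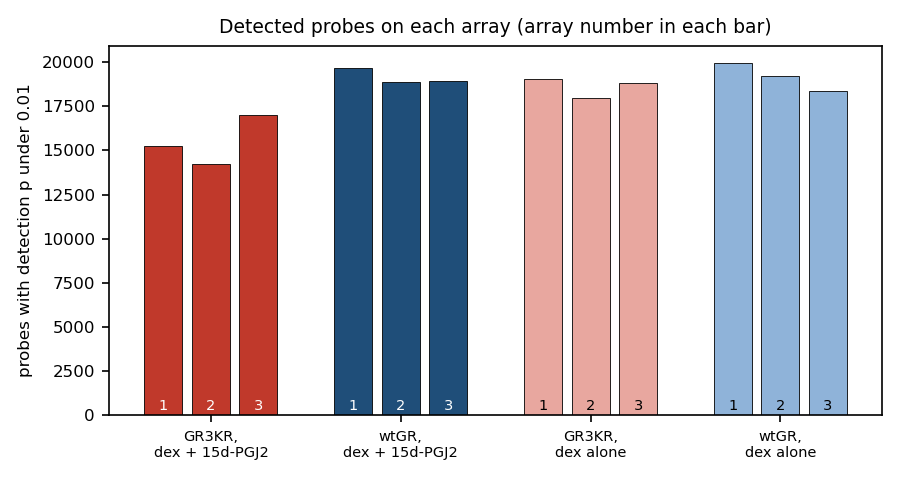
Number of probes with a detection p under 0.01 (vertical axis) on each of the 12 arrays, grouped by line and treatment, array number inside each bar. The GR3KR arrays with 15d-PGJ2 detected 14207 to 17032 probes, fewer than any other array (17959 to 19950).

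Over the 12 arrays, limma called 6340 of 12337 genes at a Benjamini-Hochberg adjusted p under 0.05, 4037 higher in GR3KR (32.7% of genes tested) and 2303 lower (18.7%). The median difference of all genes was 0.21 on the log2 scale. Of the calls, 63.7% were higher, against 51% after cyclic loess and 34.7% after median scaling, where the median of all genes was -0.012 and -0.16, and 77.4% among genes detected on all 6 arrays; the medians of gene lists below are to be read beside these values. Without GR3KR arrays 1 and 2 the calls numbered 2213, of which 1911 were also called over 12 arrays, in the same direction. That fit has only array 3 in its GR3KR 15d-PGJ2 group: its spread comes from the other 3 groups, array 3 is assumed to vary as they do, and its p-values hold no measure of the spread among GR3KR arrays with 15d-PGJ2. With the number of detected probes as a covariate, over 12 arrays, the calls numbered 81. That number and the line cannot be told apart in the 6 arrays compared, since every GR3KR array detected fewer probes than every wtGR array. Genes called lower lay at a median of -1.77 log2 on GR3KR arrays 1 and 2 and of -0.84 on GR3KR array 3, each minus the wtGR mean. Where a called gene had a further detected probe, that probe went the other way on array 3 for 512 of 1374 genes (37.3%).

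Named results therefore rest on genes termed held here: called over 12 arrays and again in the fit whose GR3KR 15d-PGJ2 group is array 3 alone, GR3KR and wtGR arrays not overlapping, the brighter group detected, and no further detected probe of the gene going the other way on array 3. Of the 12337 genes, 1082 were held higher in GR3KR (8.77%) and 698 held lower (5.66%). These counts moved with the arrays in the fit: the total of 1780 became 769 without wtGR 15d-PGJ2 array 1, 778 without array 2, 1115 without GR3KR dexamethasone array 3 and 79 with detected probes as a covariate.

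With dexamethasone alone, GR3KR and wtGR differed in 995 genes, 313 higher in GR3KR (2.54%) and 682 lower (5.53%). The 995 became 395 without GR3KR dexamethasone array 1 or array 3, 477 without array 2, 526 and 637 without wtGR dexamethasone arrays 2 and 3, and 1785 without GR3KR 15d-PGJ2 array 3. The dexamethasone arrays are not among the 6 compared under 15d-PGJ2, so they measure the line difference again, though all 12 share 1 estimate of spread. The repeat may not be independent, since some arrays shared deviations from their group means by replicate number. Between wtGR arrays with 15d-PGJ2 and with dexamethasone alone these correlated at 0.664, -0.118 and 0.677 for arrays 1, 2 and 3. Of the held genes, 182 were also called higher with dexamethasone alone (1.48% of genes tested) and 253 also lower (2.05%), and 3 were called in the opposite direction. Without wtGR dexamethasone array 3 and GR3KR 15d-PGJ2 arrays 1 and 2, the numbers were 377 and 351. The 253 lower genes had a median of -1.10 on GR3KR arrays 1 and 2, -1.30 on array 3 and -1.18 with dexamethasone alone, and the 182 higher genes had medians of 1.47, 1.26 and 0.94. These medians are a description only, since both the call on array 3 and that with dexamethasone alone chose the genes. Counts of every gene list below are to be read beside the shares over all genes. With 15d-PGJ2 those were 32.7% called higher and 18.7% lower, and 8.77% held higher and 5.66% held lower. With dexamethasone alone they were 2.54% called higher and 5.53% lower.

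The held genes not called with dexamethasone alone numbered 900 higher and 445 lower. On wtGR dexamethasone array 3, 824 of the 900 were shifted up and 332 of the 445 down relative to wtGR arrays 1 and 2, by a median of 0.32 and -0.28, while the median over all genes was 0.20. The part of that array's deviation in these differences was not tested.

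**Figure D2:**
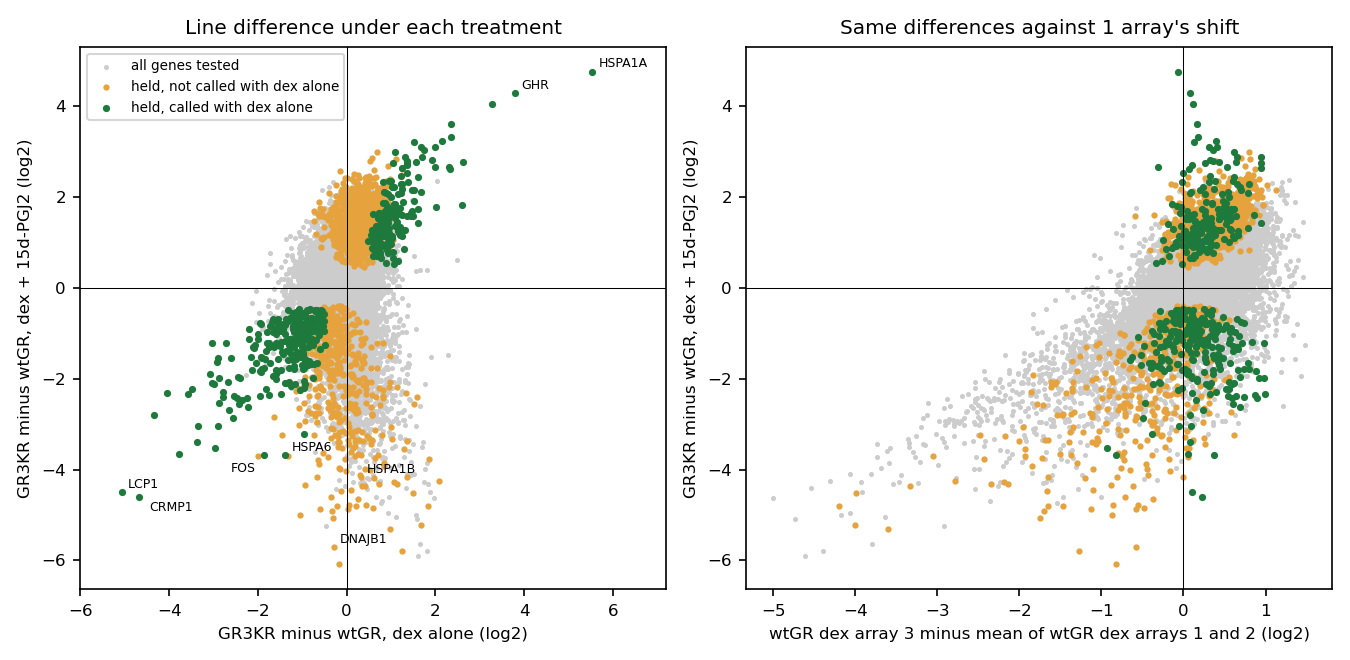
Each point is a gene. Left, GR3KR minus wtGR with dexamethasone and 15d-PGJ2 (vertical, log2) against the same difference with dexamethasone alone (horizontal, log2); right, the vertical axis is the same and the horizontal axis is wtGR dexamethasone array 3 minus the mean of wtGR dexamethasone arrays 1 and 2 (log2). Held genes called in 1 direction under both treatments are green; in the right panel, where r over all genes was 0.646, the points run from lower left to upper right.

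Genes held higher in GR3KR with the largest differences were all called with dexamethasone alone too. HSPA1A, an inducible HSP70 chaperone, read 12.72, 12.71 and 12.26 in GR3KR cells with 15d-PGJ2, against 7.61, 7.88 and 7.91 in wtGR cells. With dexamethasone alone it read 9.89, 10.15 and 10.10 in GR3KR, against 4.54, 4.53 and 4.47 in wtGR, where no array detected it. The line difference was 4.76 ± 0.17 log2 (model standard error, 3 arrays a group; limma adjusted p = 1.61e-07), or 27.2-fold. GHR, the growth hormone receptor, read 9.19, 8.89 and 8.15 in GR3KR with 15d-PGJ2, against 4.43, 4.43 and 4.49 in wtGR. All wtGR values of GHR are at background, so the difference of 4.29 ± 0.22 (adjusted p = 1.77e-06) is at least 10.8-fold, with undetected arrays raised to the lowest detected level of the array. ISL1, a LIM homeodomain transcription factor, gave 9.27, 8.91 and 8.42 in GR3KR, against 4.77, 4.87 and 4.82 in wtGR (at least 11.8-fold, adjusted p = 1.77e-06). For both genes the GR3KR arrays were far above every wtGR array, and array 3 was the lowest of the 3.

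Glutathione transferases join electrophiles to glutathione, and GSTP1, GSTM1 and GSTM2 among them were held higher in GR3KR. The family was not counted as a list, so these members do not speak for it. GSTP1 read 13.59, 13.38 and 13.18 in GR3KR with 15d-PGJ2, against 10.56, 10.38 and 10.86 in wtGR, a difference of 2.78 ± 0.20 (adjusted p = 1.45e-05), close to the 2.63 found with dexamethasone alone. GSTM1 read 10.16, 9.95 and 9.53 in GR3KR, against 6.26, 6.01 and 6.51 in wtGR (12.3-fold, adjusted p = 1.98e-06). GSTM2, whose sequence is close enough to GSTM1 for probes to share signal, differed by 3.32 ± 0.22. On the probes that stood for these genes, no GR3KR value overlapped a wtGR value under either treatment. With 15d-PGJ2 this is required of every held gene. A further GSTM2 probe, undetected on every array with 15d-PGJ2, read 4.54, 5.11 and 5.15 in GR3KR there, against 4.85, 4.72 and 4.56 in wtGR. With dexamethasone alone that probe read 6.76, 6.48 and 6.36 in GR3KR, against 5.07, 5.01 and 5.02 in wtGR.

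H1-2, a linker histone, read 12.84, 13.16 and 12.75 in GR3KR with 15d-PGJ2, against 9.77, 9.86 and 10.02 in wtGR (8.19-fold, adjusted p = 3.84e-06). CNTN1, the neural adhesion molecule contactin, was at least 8.99-fold higher (3.23 ± 0.24) and STAT6, which carries interleukin signals to the nucleus, at least 7.59-fold higher (3.11 ± 0.23), each with 2 of 3 wtGR arrays detected. FLRT2, a leucine-rich repeat membrane protein, was detected in GR3KR alone and was at least 3.85-fold higher. TUSC1 was 6.35-fold higher (2.67 ± 0.29), and HSPA1L, the HSP70 gene next to HSPA1A, at least 8.15-fold higher (3.22 ± 0.23), with 1 of 3 wtGR arrays detected. With dexamethasone alone the differences of these 6 genes ran from 1.51 for HSPA1L to 2.33 for FLRT2, all called.

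The largest losses in GR3KR under both treatments included cytoskeletal, adhesion and neural genes. In bulk samples fewer cells of a type and less RNA per cell cannot be told apart. LCP1, the actin-bundling protein L-plastin, read 7.0, 6.36 and 5.24 in GR3KR cells with 15d-PGJ2, against 10.71, 10.79 and 10.61 in wtGR cells. With dexamethasone alone it read 5.96, 5.71 and 5.62 in GR3KR, against 10.86, 10.73 and 10.90 in wtGR. The difference under 15d-PGJ2 was -4.50 ± 0.34 (adjusted p = 2.01e-05), at least 20-fold lower, and GR3KR array 3 was the lowest of all. CRMP1, a collapsin response mediator of axon guidance, read 4.93, 5.20 and 6.40 in GR3KR, against 9.85, 10.09 and 10.37 in wtGR (at least 13.7-fold lower, adjusted p = 1.63e-05). TENM1, a teneurin adhesion protein, read 6.18, 6.41 and 4.98 in GR3KR, against 9.02, 8.50 and 8.47 in wtGR (at least 5.9-fold lower). PCDH19, a protocadherin, was at background on every GR3KR array under both treatments and at least 2.83-fold lower with 15d-PGJ2 (adjusted p = 4.63e-07).

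Several further genes were at background in GR3KR and expressed in wtGR whichever treatment was given. AMBN, the enamel matrix protein ameloblastin, read 4.46, 4.55 and 4.65 in GR3KR with 15d-PGJ2, against 8.03, 7.97 and 8.63 in wtGR, and both of its further probes showed the same (differences of -2.48 and -2.46). BEX5 read 4.86, 5.01 and 4.86 in GR3KR, against 8.34, 8.32 and 8.23 in wtGR, with differences of -3.38 with 15d-PGJ2 and -3.37 with dexamethasone alone. TCEAL7 (-3.52 and -2.97) and the antisense transcript ZNF667-AS1 (-3.03 and -2.91) behaved likewise, in the same order of treatments. ZNF22, a zinc finger gene, stayed detected in GR3KR on 2 of 3 arrays and was at least 6.85-fold lower. A further ZNF22 probe, detected on all 6 arrays with 15d-PGJ2, gave -1.74 there, -2.52 on array 3 and -3.23 with dexamethasone alone. The size of the ZNF22 loss thus depends on the probe. The 12 lower genes of this group were chosen after their values were seen; beside those named they hold FOS, HSPA6 and HBA1, described below.

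Markers of the labelled line and of other cell types were read in the same arrays. Of 17 HEK293 markers 14 were measured, 8 detected on all 3 GR3KR arrays with 15d-PGJ2 and 12 on all 3 wtGR arrays. NEFM was undetected in wtGR, and NEFM and KRT18 on GR3KR array 3. With 15d-PGJ2 5 were called higher in GR3KR and 4 lower, with a median of 0.62 that became 0.09 on array 3, and with dexamethasone alone none was called higher and 2 lower. The cadherin CDH2 (1.34) and the RNA-binding protein LIN28B (0.76) were held higher, and no member was held lower. The cadherin CDH1 (-2.13, and -0.47 on array 3) and the intermediate filament vimentin, VIM (-2.24 and -0.36), were among those called lower over 12 arrays. A further VIM probe, detected on all 3 GR3KR and all 3 wtGR arrays with 15d-PGJ2, gave -0.446. On array 3 that probe was higher in GR3KR (0.451), and with dexamethasone alone it gave 0.385. The VIM probes thus differ in direction on array 3. Called lower with dexamethasone alone were the neurofilament-like INA (-1.74) and the stem cell factor SOX2 (-0.81). With 15d-PGJ2 INA was called lower (-0.56), and SOX2 higher (0.76) on the probe that stood for it. A further SOX2 probe, detected on every wtGR and no GR3KR array with 15d-PGJ2, went the other way (-1.97, and -2.12 on array 3). The SOX2 probes therefore give no single line difference with 15d-PGJ2. Summed on the linear scale, the HEK293 markers ran from 12600 to 14300 in GR3KR and from 13200 to 15100 in wtGR with 15d-PGJ2, and from 14700 to 18100 in GR3KR and from 10600 to 15700 in wtGR with dexamethasone alone.

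Neuronal markers, some of which HEK293 cells express, moved with these losses: 12 of 18 were measured, 1 called higher and 5 lower with 15d-PGJ2, with summed levels of 4130 to 7160 in GR3KR, against 9490 to 10500 in wtGR. With dexamethasone alone 5 were called lower, with summed levels of 6190 to 6920 in GR3KR, against 7650 to 9630 in wtGR. STMN2, a tubulin regulator of growing axons (-1.82), the synaptic vesicle protein SYP (-1.47) and the granin CHGB (-1.30) were held lower and called lower under both treatments, and MAP2 was held higher (2.02). On GR3KR array 3 CHGA, CHGB, NEFM, STMN2 and SYP were undetected. DCX, ELAVL3, ELAVL4, GAP43, RBFOX3 and SYT1 were not measured: no probe assigned to them was detected on at least 3 of 12 arrays. The part of neuronal markers in the losses of CRMP1 and other neural genes was not tested.

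Of 17 leukocyte markers 7 were measured, 2 called in each direction, and LCP1 and CORO1A (-1.62) were held lower under both treatments; the summed level was 1240 to 2080 in GR3KR and 2560 to 2700 in wtGR with 15d-PGJ2, and 804 to 1040 in GR3KR and 2390 to 2990 in wtGR with dexamethasone alone. PTPRC, CD3D, CD3E, MS4A1 and SPI1, which mark leukocytes, were not measured: no probe assigned to them was detected on at least 3 of 12 arrays. The part of leukocyte markers in the loss of LCP1 was not tested. Of 15 fibroblast markers 5 were measured and 3 called higher, among them TAGLN (1.44) and PDGFRA (1.75), neither held; a further TAGLN probe, detected on 2 wtGR arrays and no GR3KR array, went the other way (-0.86). The summed level of fibroblast markers was 1830 to 2880 in GR3KR and 1440 to 1470 in wtGR with 15d-PGJ2, and 1740 to 1790 in GR3KR and 1270 to 1760 in wtGR with dexamethasone alone. Of 14 measured epithelial junction genes 1 was called higher and 11 lower over 12 arrays, with a median of -2.28 that became -0.53 without GR3KR arrays 1 and 2. Their summed level was 7480 to 12200 in GR3KR and 16600 to 18800 in wtGR with 15d-PGJ2. With dexamethasone alone, where 1 was called lower and none higher, the sums overlapped, at 15000 to 18500 in GR3KR and 14600 to 18900 in wtGR. CRB3, ESRP1 and KRT18 were undetected on GR3KR array 3. KRT19 (-3.09, -1.45 without these arrays and -0.35 with dexamethasone alone, not called) and the polarity gene CRB3 (-2.43) were held lower, CRB3 under both treatments (-2.25 with dexamethasone alone).

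**Figure D3:**
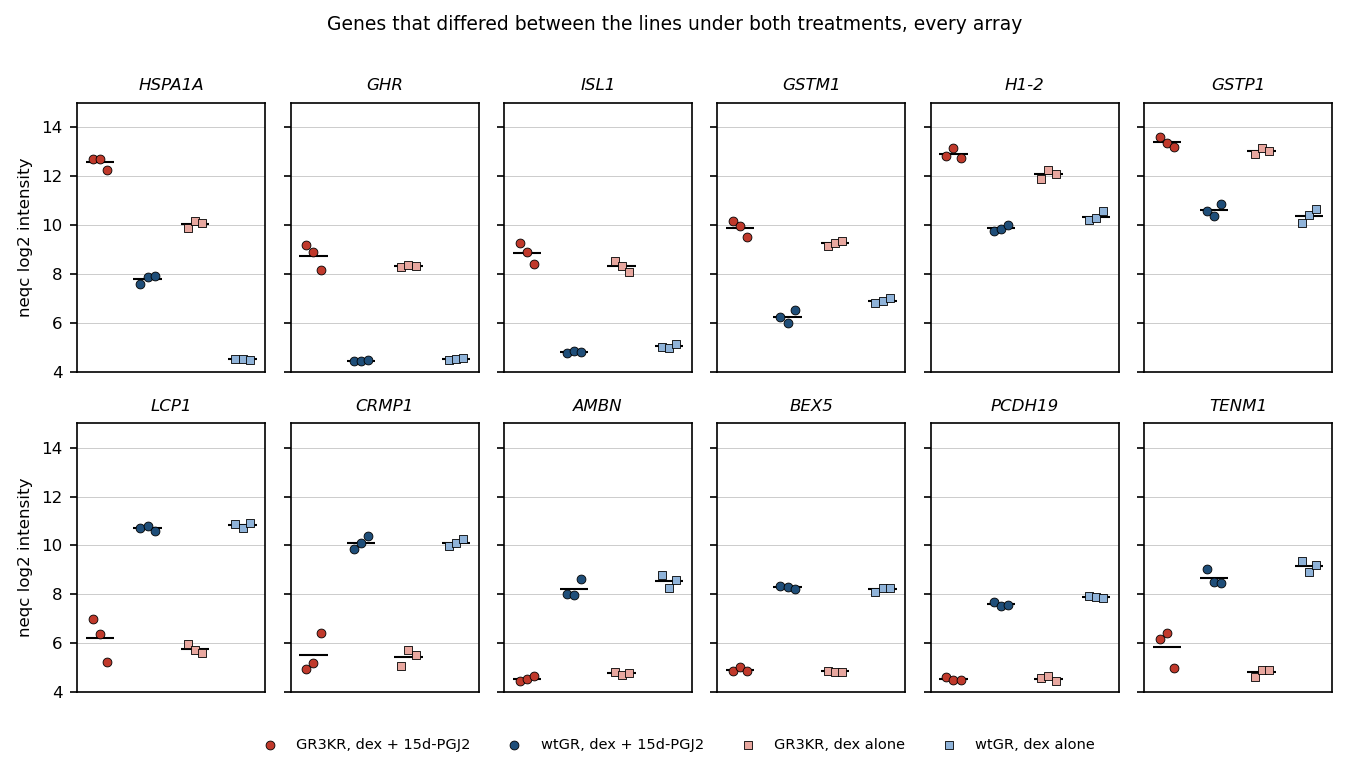
neqc log2 intensity (vertical axis) of 12 genes on every array, red for GR3KR and blue for wtGR, circles for dexamethasone plus 15d-PGJ2 and squares for dexamethasone alone; black lines are group means of 3 arrays. In every panel the GR3KR and wtGR arrays are apart under both treatments, HSPA1A through GSTP1 higher in GR3KR and LCP1 through TENM1 lower.

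Heat shock genes, which the factor HSF1 switches on when proteins misfold, split by gene. Of 37 genes in the list 32 were measured; 4 were called higher in GR3KR with 15d-PGJ2 and 13 lower, 3 and 11 of them held, and the median difference was -0.42, against 0.21 over all genes. With dexamethasone alone 3 were called higher and 5 lower. HSPA6, an HSP70 that is nearly silent without stress, read 9.87, 9.31 and 9.54 in GR3KR with 15d-PGJ2, against 13.14, 13.52 and 13.09 in wtGR, and with dexamethasone alone 5.91, 6.54 and 5.92 in GR3KR, against 7.34, 7.43 and 7.76 in wtGR. It was 12.8-fold lower with 15d-PGJ2 (-3.67 ± 0.23, adjusted p = 7.01e-06) and 2.61-fold lower with dexamethasone alone (adjusted p = 0.00484). A further HSPA6 probe was undetected on all GR3KR arrays and read 10.82, 11.34 and 5.96 in wtGR, so its wtGR array 3 lay far below the others. With dexamethasone alone that probe was near background in both lines and did not repeat the difference (0.114). HSPA7, a pseudogene close in sequence to HSPA6, read 8.01, 7.43 and 7.50 in GR3KR with 15d-PGJ2, against 10.27, 10.65 and 10.23 in wtGR (6.68-fold lower, adjusted p = 4.85e-05).

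DNAJB1, the HSP40 partner of HSP70, read 6.55, 7.38 and 10.52 in GR3KR with 15d-PGJ2, against 13.89, 13.95 and 13.74 in wtGR. Its difference was -5.71 ± 0.75 over 12 arrays (adjusted p = 0.000404) and -3.33 without GR3KR arrays 1 and 2, so arrays 1 and 2 make up much of the fold. With dexamethasone alone it read 9.61, 9.85 and 9.72 in GR3KR, against 10.09, 10.33 and 9.63 in wtGR, which overlap. HSPA1B, the other inducible HSP70 gene, read 9.81, 9.44 and 10.64 in GR3KR with 15d-PGJ2, against 14.39, 14.42 and 13.61 in wtGR (18-fold lower, adjusted p = 0.000155). With dexamethasone alone its lines overlapped, at 11.30, 9.89 and 10.71 in GR3KR and 11.05, 10.11 and 9.78 in wtGR. HSPA1A and HSPA1B, near-identical genes, thus differed between the lines in opposite directions under 15d-PGJ2, and probes of such genes can share signal.

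The other held members lower in GR3KR were HSPH1 (-2.15), the HSP110 exchange factor for HSP70, BAG3 (-1.35), a cochaperone, the small heat shock proteins HSPB8 (-1.82) and CRYAB (-1.57), the HSP90 cochaperones CHORDC1 (-1.87) and STIP1 (-1.77), IER5 (-2.75) and DEDD2 (-1.14). On array 3 these 8 differences ran from -2.18 for HSPB8 to -0.83 for STIP1, with IER5 at -1.30. With dexamethasone alone HSPH1, BAG3, CHORDC1, STIP1, IER5 and DEDD2 were not called and ran from -0.36 for HSPH1 to 0.54 for STIP1. HSPB8 and CRYAB were also called lower with dexamethasone alone (-1.93 and -1.54), whereas the small heat shock protein HSPB1 was higher in GR3KR under both (0.86 with 15d-PGJ2 and 1.30 with dexamethasone alone). The constitutive chaperones HSPA8 (0.19, adjusted p = 0.333) and HSP90AB1 (-0.20, adjusted p = 0.392) did not pass the test on the probe that stood for each. A further HSPA8 probe, detected on all 6 arrays, read 10.81, 11.58 and 12.81 in GR3KR with 15d-PGJ2, against 13.20, 13.16 and 13.17 in wtGR. It was thus lower in GR3KR (-1.45, and -0.37 on array 3), so the HSPA8 probes differ in direction.

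The RefSeq promoter windows (GRCh38.p14, 250 bases before to 50 after a listed gene start) of the 4 heat shock genes with the largest held differences are shown because these genes are known targets of the same factor and differed between the lines in both directions. Capitals mark matches to GAANNTTC or TTCNNGAA, pairs of inverted heat shock units that read the same on both strands; overlapping pairs run together. The windows are chr6:31815293-31815592, plus strand, for HSPA1A; chr6:31827488-31827787, plus strand, for HSPA1B; chr1:161524290-161524589, plus strand, for HSPA6; and chr19:14518348-14518647, minus strand, for DNAJB1, the one of its 3 listed windows with most matches.
HSPA1A: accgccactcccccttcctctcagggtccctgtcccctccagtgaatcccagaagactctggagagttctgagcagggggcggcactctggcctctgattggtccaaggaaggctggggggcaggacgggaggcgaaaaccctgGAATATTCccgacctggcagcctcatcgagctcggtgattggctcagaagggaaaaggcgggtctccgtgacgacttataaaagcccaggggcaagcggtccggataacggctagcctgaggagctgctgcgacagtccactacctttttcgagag
HSPA1B: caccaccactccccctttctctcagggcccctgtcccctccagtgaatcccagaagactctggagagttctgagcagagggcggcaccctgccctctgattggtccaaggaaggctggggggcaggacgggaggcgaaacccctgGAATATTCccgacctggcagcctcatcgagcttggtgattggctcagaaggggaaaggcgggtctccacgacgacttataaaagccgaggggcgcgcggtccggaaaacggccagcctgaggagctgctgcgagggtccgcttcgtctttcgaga
HSPA6: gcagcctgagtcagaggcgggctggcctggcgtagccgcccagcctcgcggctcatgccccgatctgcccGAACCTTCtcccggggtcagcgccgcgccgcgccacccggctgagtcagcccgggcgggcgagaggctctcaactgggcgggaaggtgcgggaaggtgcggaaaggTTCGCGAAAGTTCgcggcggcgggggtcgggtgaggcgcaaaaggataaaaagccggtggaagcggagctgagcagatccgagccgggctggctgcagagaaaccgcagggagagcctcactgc
DNAJB1: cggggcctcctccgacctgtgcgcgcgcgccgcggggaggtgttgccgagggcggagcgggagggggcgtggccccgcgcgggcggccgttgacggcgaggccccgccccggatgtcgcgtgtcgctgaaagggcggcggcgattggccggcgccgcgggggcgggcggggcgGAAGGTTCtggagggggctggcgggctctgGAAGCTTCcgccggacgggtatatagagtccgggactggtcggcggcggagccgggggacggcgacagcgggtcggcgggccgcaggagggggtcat

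HSPA1A and HSPA1B each hold 1 match, GAATATTC, starting 106 and 105 bases before the gene start, and their windows are identical at 277 of 301 aligned positions (92%). HSPA6 holds 3 matches, 2 of which overlap, the first starting 180 bases before the gene start, and DNAJB1 holds 2, the first at 77 bases. A match stood for 16.2% of all RefSeq genes with a window, 13.9% of the genes tested and 22 of the 30 measured list members that have one (73.3%), and in 13.5% of all 35116 windows. It was found for 7 of the 10 members held lower with a window and for all 3 held higher, HSPA1A, HSPA1L and HSPB1.

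Genes of the integrated stress response, which ATF4 drives when amino acids run short or proteins misfold, were mostly called lower in GR3KR, under both treatments, where they were called. Of 53 symbols in the list 44 genes were measured; 3 were called higher in GR3KR with 15d-PGJ2 and 23 lower, beside 32.7% and 18.7% of all genes, with a median of -0.77. None was held higher and 17 were held lower, 16 of them called lower with dexamethasone alone as well. With dexamethasone alone 20 were called lower and none higher, with a median of -0.80. In the fit without the 3 arrays that stood apart, 23 were called lower with dexamethasone alone. ATF4 itself did not pass on the probe that stood for it (0.02, adjusted p = 0.942), and its further probes differed from that one. The brighter read 5.69, 6.19 and 10.83 in GR3KR with 15d-PGJ2, against 10.28, 10.24 and 10.87 in wtGR, so that the difference of -2.89 came from GR3KR arrays 1 and 2 and was 0.37 on array 3, with -0.71 under dexamethasone alone. The dimmer differed by -0.47, and by 0.58 on array 3.

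INHBE, an inhibin subunit, read 8.03, 7.87 and 7.41 in GR3KR with 15d-PGJ2, against 9.92, 9.71 and 9.91 in wtGR, and with dexamethasone alone 6.05, 6.42 and 6.19 in GR3KR, against 8.76, 8.66 and 9.26 in wtGR. It was 4.22-fold lower with 15d-PGJ2 (adjusted p = 0.000126) and 6.36-fold lower with dexamethasone alone. DDIT3, the stress factor CHOP, read 7.88, 8.32 and 9.20 in GR3KR with 15d-PGJ2, against 10.68, 10.60 and 10.60 in wtGR (4.46-fold lower, adjusted p = 0.000413), with array 3 the highest of the GR3KR arrays. CHAC1, which degrades glutathione, read 4.96, 4.55 and 6.14 in GR3KR, against 7.15, 7.30 and 7.88 in wtGR; only GR3KR array 3 detected it, and it was at least 2.3-fold lower (adjusted p = 0.0011). ATF3, a stress transcription factor, read 6.29, 6.69 and 9.26 in GR3KR with 15d-PGJ2, against a mean of 11.8 ± 0.34 in wtGR (SD, n = 3). Its difference was -4.34 ± 0.62 over 12 arrays and -2.49 without GR3KR arrays 1 and 2, and it was the held member not called with dexamethasone alone (-0.95, adjusted p = 0.418).

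The other held members span the branches of the programme. They are the regulators TRIB3 (-1.47 with 15d-PGJ2 and -1.11 with dexamethasone alone), DDIT4 (-1.57 and -0.94), PPP1R15A (-1.79 and -0.98), CEBPB and CEBPG, and the amino acid enzymes ASNS (-0.94 and -1.58), PSAT1 (-0.91 and -1.20) and CTH (-1.28 and -1.27). The transporter subunits SLC3A2 and SLC7A5, the tRNA synthetases MARS1 and WARS1 and the secreted STC2 complete them. A further probe of CTH and one of SLC3A2 were also lower with 15d-PGJ2 and differed less with dexamethasone alone (-0.20 and -0.15). ASNS and PSAT1 differed more with dexamethasone alone than with 15d-PGJ2, though their interaction terms did not pass (0.0538 and 0.345 as adjusted p).

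Promoter windows of 2 held members, CHAC1 (chr15:40953221-40953520, plus strand) and ASNS (chr7:97872359-97872658, minus strand, the one of 2 listed windows with a match), show the ATF4 motif in capitals, searched as TGATGNAA on both strands.
CHAC1: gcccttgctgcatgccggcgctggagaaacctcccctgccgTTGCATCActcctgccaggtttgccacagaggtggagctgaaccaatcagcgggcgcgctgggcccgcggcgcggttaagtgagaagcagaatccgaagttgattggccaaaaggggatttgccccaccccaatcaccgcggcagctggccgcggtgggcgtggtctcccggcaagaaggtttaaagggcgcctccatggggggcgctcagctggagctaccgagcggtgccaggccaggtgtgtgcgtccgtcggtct
ASNS: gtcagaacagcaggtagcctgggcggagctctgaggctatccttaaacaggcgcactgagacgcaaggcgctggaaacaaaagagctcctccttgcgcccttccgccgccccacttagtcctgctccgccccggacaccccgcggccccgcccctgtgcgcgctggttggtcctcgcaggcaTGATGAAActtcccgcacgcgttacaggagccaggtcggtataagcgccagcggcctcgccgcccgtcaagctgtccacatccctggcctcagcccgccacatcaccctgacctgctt

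The match in CHAC1 is on the opposite strand and starts 209 bases before the gene start, and that in ASNS starts 68 bases before it. A match stood for 4.46% of all RefSeq genes with a window, 2.71% of the genes tested and 13 of the 37 measured list members with a window (35.1%). Of the 16 held members with a window, 6 had one: ASNS, ATF3, CEBPG, CHAC1, MARS1 and SLC3A2.

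**Figure D4:**
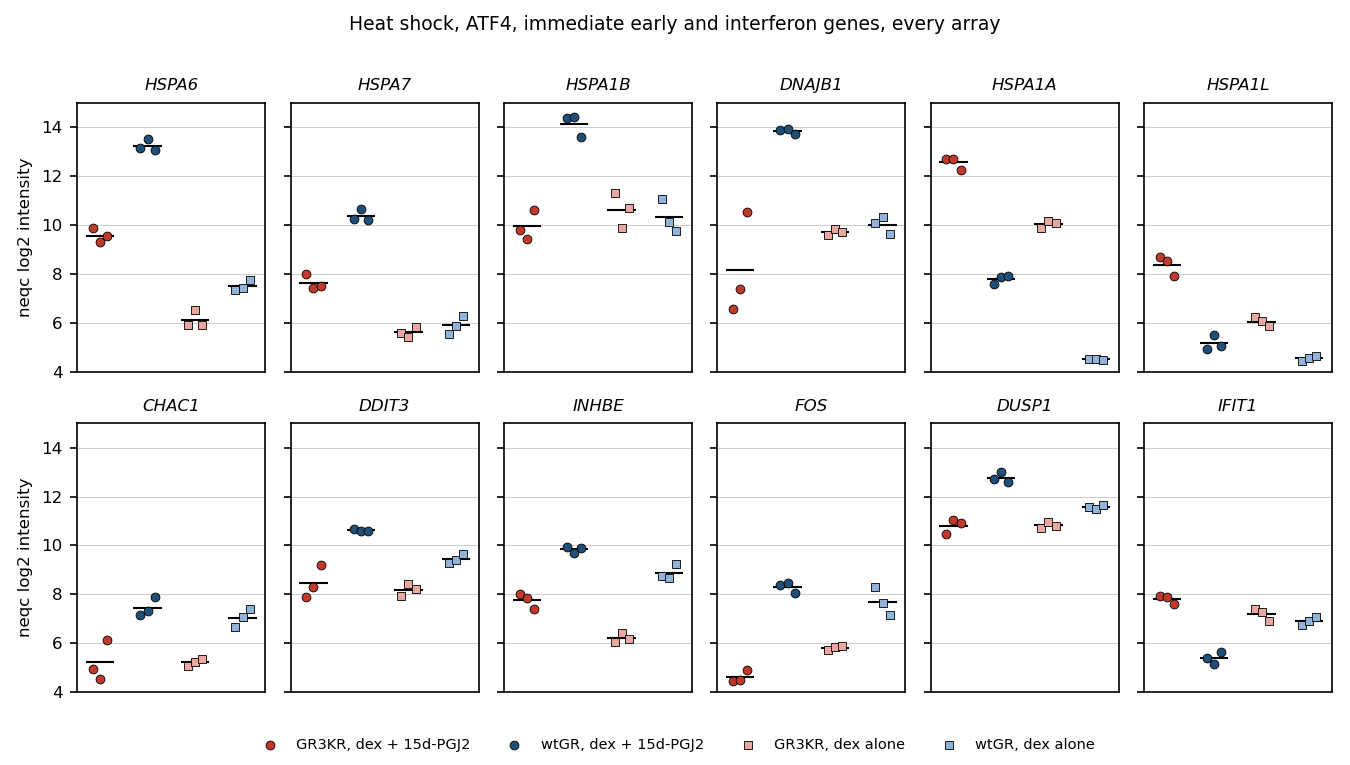
neqc log2 intensity (vertical axis) of 12 genes on every array, red for GR3KR and blue for wtGR, circles for dexamethasone plus 15d-PGJ2 and squares for dexamethasone alone; black lines are group means of 3 arrays. HSPA1A and HSPA1L are higher in GR3KR and HSPA6, HSPA7, HSPA1B and DNAJB1 lower with 15d-PGJ2; INHBE, CHAC1, DDIT3, FOS and DUSP1 are lower in GR3KR under both treatments, and IFIT1 is apart between the lines with 15d-PGJ2.

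The list of endoplasmic reticulum chaperones had 23 measured members, 4 called higher and 8 lower with 15d-PGJ2, none held higher and 5 held lower, with a median of -0.16. With dexamethasone alone none was called higher and 6 lower, with a median of -0.19. The held members were XBP1, a factor of the unfolded protein response (-2.21), the chaperone HYOU1 (-2.79), EDEM1 (-3.38), MANF (-0.95) and HSPA5 (-0.73). MANF (-0.50) and HSPA5 (-1.32) were also called lower with dexamethasone alone, and XBP1 (-0.72), HYOU1 (-0.19) and EDEM1 (-0.16) were not. A further probe of XBP1 and one of HYOU1 went the same way on array 3 (-1.42 and -2.41). EDEM1 was also low on wtGR dexamethasone array 3 (a shift of -1.12).

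The receptor gene NR3C1 was read by 1 kept probe, whose values were 5.68, 6.11 and 6.28 in GR3KR with 15d-PGJ2, against 5.81, 5.65 and 5.84 in wtGR, near the detection limit. Its 2 further probes were detected on 0 and 2 of the 12 arrays. The line difference did not pass (0.26 ± 0.20, adjusted p = 0.291), and whether the probe reads the introduced receptors is not given in the sources used here, so it does not check the labels.

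Of the glucocorticoid receptor targets 45 were measured, 10 called higher in GR3KR with 15d-PGJ2 and 15 lower, 1 and 12 of them held, with a median of -0.24. With dexamethasone alone 1 was called higher and 9 lower. The classical targets FKBP5 (-0.19, adjusted p = 0.333), TSC22D3 (-0.08, adjusted p = 0.725) and PER1 (-0.36, adjusted p = 0.57) did not pass on the probe that stood for each. Both further kept probes of TSC22D3 were lower in GR3KR. One, detected on all 6 arrays, read 9.25, 11.24 and 13.86 in GR3KR with 15d-PGJ2, against 14.06, 14.08 and 14.14 in wtGR, a difference of -2.64 that was -0.23 on array 3. The other was at background on every GR3KR array with 15d-PGJ2 and read 10.67, 11.25 and 4.69 in wtGR (-4.42), with 1 wtGR array at background as well. The TSC22D3 probes therefore give no single line difference. DUSP1, a phosphatase that switches off MAP kinases, read 10.45, 11.05 and 10.90 in GR3KR with 15d-PGJ2, against 12.73, 13.01 and 12.60 in wtGR (3.94-fold lower, adjusted p = 8.35e-05), and was also lower with dexamethasone alone (-0.75, adjusted p = 0.0315). SCNN1G, a subunit of the epithelial sodium channel, read 4.67, 5.46 and 5.01 in GR3KR, against 6.99, 7.06 and 6.94 in wtGR (at least 1.87-fold lower, adjusted p = 0.000196), and a further probe gave -1.80. No GR3KR array detected SCNN1G, with or without 15d-PGJ2, and every wtGR array did.

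The amino acid transporter SLC7A5 was 4.15-fold lower (-2.05 ± 0.24). CXCR4, a chemokine receptor, was at least 2.54-fold lower (-2.80 ± 0.42), but on wtGR dexamethasone array 3 it was lower too (a shift of -1.54). The further held members were NFKBIA, CEBPB, GADD45A, GADD45B, ERRFI1, RHOB, SNAI2 and TIPARP. CEBPB and SLC7A5 are also in the ATF4 list, DUSP1 in that of immediate early genes and NFKBIA in that of NF-kB targets. ZBTB16, a zinc finger repressor, was the member held higher (1.46 ± 0.25, adjusted p = 0.00134). The stress kinase SGK1 was called lower over 12 arrays (-0.48) and not held, and further SGK1 probes detected on all wtGR arrays gave -3.60 and -2.47, or -0.81 and -0.47 on array 3.

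The chaperones that assemble the receptor had 18 measured members, 3 called higher and 6 lower, 1 and 4 held, with a median of -0.35. Held lower were DNAJB1, STIP1 and CHORDC1, given above, and CDC37 (-0.71), and held higher was PPID (1.80), a cyclophilin. On array 3 CDC37 and PPID gave -0.94 and 1.55. No member was called with dexamethasone alone, where CDC37 and PPID gave -0.18 and 0.35. Of 26 receptor coregulators 8 were called in each direction, with a median of -0.14; held higher were the histone deacetylases HDAC1 (1.15, and 1.03 with dexamethasone alone), HDAC2 (0.84) and HDAC3 (0.72), and PIAS1 (0.84). PRMT1, an arginine methyltransferase, was held lower (-5.22), and wtGR dexamethasone array 3 was also low (a shift of -4.00). Of 18 measured SUMO pathway genes 7 were called higher and 5 lower, with a median of 0.18, which became -0.18 after median scaling. Held were the SUMO ligases PIAS1 and ZNF451 (0.89, and 0.56 with dexamethasone alone), both higher in GR3KR, and PIAS4 (-0.59), lower.

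Immediate early genes, the first to answer a stimulus, were mostly called lower in GR3KR where they were called: of 31 measured, 2 were called higher and 15 lower, beside 32.7% and 18.7% of all genes, none held higher and 12 held lower, with a median of -0.64. With dexamethasone alone 7 were called lower and none higher. FOS, a subunit of the AP-1 factor, read 4.46, 4.50 and 4.90 in GR3KR with 15d-PGJ2, against 8.40, 8.46 and 8.04 in wtGR, and with dexamethasone alone 5.73, 5.86 and 5.88 in GR3KR, against 8.30, 7.63 and 7.14 in wtGR. No GR3KR array with 15d-PGJ2 detected it, and it was at least 4.62-fold lower (adjusted p = 1.46e-05). MYC, a growth transcription factor, read 4.66, 4.94 and 8.90 in GR3KR with 15d-PGJ2, against 11.05, 11.43 and 11.03 in wtGR. Its difference was -5.00 ± 0.86 over 12 arrays and -2.27 without GR3KR arrays 1 and 2, and a further MYC probe gave -0.44 and, on array 3, -0.69, with -1.57 under dexamethasone alone. The other held members were ATF3 and IER5, given above, and JUNB, JUND, EGR1, BTG1, DUSP1, DUSP5, IER3 and ZFP36.

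Of 22 measured NF-kB targets 4 were called higher and 10 lower, beside 32.7% and 18.7% of all genes. None was held higher and 7 were held lower, beside 8.77% and 5.66%, with a median of -0.50. TNF, the inflammatory cytokine, read 4.45, 4.44 and 4.49 in GR3KR with 15d-PGJ2, against 6.44, 6.48 and 6.71 in wtGR, and was detected on no GR3KR array and on every wtGR array under both treatments (-2.08 ± 0.18, adjusted p = 5.8e-05). NFKBIA, the inhibitor that NF-kB induces, was 3.14-fold lower (-1.65 ± 0.18), IER3 3.1-fold lower (-1.63 ± 0.21) and the chemokine CXCL2 at least 1.11-fold lower (-1.53 ± 0.21). CXCL1, NFKB1 and TNFAIP3 were held lower as well, and 7 list members were called lower with dexamethasone alone, beside 5.53% of all genes.

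Interferon-stimulated genes were mostly called higher in GR3KR where they were called. Of 26 measured, 15 were called higher in GR3KR with 15d-PGJ2 and 1 lower, beside 32.7% and 18.7% of all genes, 6 and 1 of them held, with a median of 0.92; with dexamethasone alone 2 were called higher and 1 lower, with a median of 0.13. IFIT1, an antiviral RNA-binding protein, read 7.95, 7.89 and 7.62 in GR3KR with 15d-PGJ2, against 5.40, 5.14 and 5.66 in wtGR (at least 5.11-fold higher, adjusted p = 2.73e-05). With dexamethasone alone it read 7.38, 7.26 and 6.92 in GR3KR, against 6.73, 6.91 and 7.08 in wtGR, where the lines overlapped. SAMD9 (2.33) and ISG20 (1.09) were higher under both treatments, and XAF1 (2.06), IFIH1 (1.18) and HERC5 (0.96) passed with 15d-PGJ2. OAS3, an RNA sensor, was lower in GR3KR under both (-1.60 and -1.21 with dexamethasone alone). The list's median shift on wtGR dexamethasone array 3 was 0.48, against 0.20 over all genes, and after median scaling 9 members were called higher and 4 lower.

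Of 35 measured G2/M genes, which act in mitosis, 14 were called higher in GR3KR with 15d-PGJ2 and 6 lower, near the shares over all genes (32.7% and 18.7%). Held were 8 higher and none lower, beside 8.77% and 5.66% of all genes, and with dexamethasone alone 5 were called higher and none lower, beside 2.54% and 5.53%; the medians were 0.38 and 0.33. After median scaling 9 were called higher and 7 lower, with 6 held higher. KIF2C, a mitotic kinesin, read 11.23, 11.13 and 10.79 in GR3KR with 15d-PGJ2, against 9.41, 9.54 and 9.70 in wtGR (2.82-fold higher, adjusted p = 0.000545). The cyclin CCNB1 (1.45), the checkpoint kinase BUB1 (1.36) and the securin PTTG1 (1.26) followed, with CCNB2, BIRC5, CENPA and KIF20A, and CCNB1 and BUB1 were also called with dexamethasone alone (0.79 and 0.67). A further PTTG1 probe read lower in GR3KR over all arrays (-1.23) and higher on array 3 (0.48).

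Of 29 measured S phase genes, 9 were called higher and 7 lower, and RFC5 (0.78) was held higher and MCM7 (-0.58) and POLA1 (-0.67) lower, with a median of 0.01. Of 13 measured histone genes 5 were called higher and 2 lower, and H1-2, H2BC5 (1.86) and H2AC20 (1.75) were held higher; all 5 members called with dexamethasone alone were higher. Histone probes can share signal.

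The metabolic lists are read beside the shares over all genes, 32.7% called higher with 15d-PGJ2, 8.77% held higher and few called with dexamethasone alone (2.54% higher and 5.53% lower). Of 37 measured genes of mitochondrial oxidative phosphorylation 18 were called higher and 2 lower, with 6 held higher, and their median was 0.42 with 15d-PGJ2 (0.57 after median scaling) and 0.05 with dexamethasone alone. The named members were the complex I subunits NDUFB3 (1.12), NDUFB10 (1.11) and NDUFA2 (1.03) and the cytochrome oxidase subunit COX7A2 (0.97). Of 18 sterol synthesis genes 7 were called higher and 3 lower, and CYP51A1 (1.87), FDPS (1.85), HMGCS1 (1.27) and LSS (0.81) were held higher. On array 3 these 4 gave 1.06, 1.59, 0.92 and 1.20, and with dexamethasone alone, not called, 0.02, 0.53, 0.45 and 0.58. LSS did not pass after cyclic loess (0.57, limma adjusted p = 0.119) or median scaling (0.49, 0.233), and further LSS probes gave -0.13 and 1.56. The sterol list's median was 0.07, and -0.11 after median scaling. Of 6 metallothioneins, whose probes can share signal, 4 were called higher and MT1F (1.22) was held. PPAR targets (6 higher and 0 lower of 19, or 3 and 3 after median scaling, ACSL1 held at 0.91) and glycolytic enzymes (5 higher and 4 lower of 20, PFKM held at 1.27) were at or below the shares over all genes, both called and held higher.

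NRF2 targets, the oxidative stress genes, gave 5 called higher and 8 lower of 29, 1 and 4 held, with a median of -0.04. FTL, the ferritin light chain, read 7.76, 7.77 and 11.57 in GR3KR with 15d-PGJ2, against 13.80, 13.79 and 13.83 in wtGR. Its difference was -4.77 ± 0.78 over 12 arrays and -2.24 without GR3KR arrays 1 and 2, and a further probe gave -2.11 on array 3. HMOX1, haem oxygenase, was held lower (-1.30, and -1.25 without arrays 1 and 2), as were MAFG (-3.53) and EPHX1 (-1.37), while the transporter ABCB6 was held higher (1.92). On array 3 MAFG, EPHX1 and ABCB6 gave -1.66, -0.89 and 1.62. No NRF2 target was called with dexamethasone alone, where these 3 gave -0.09, -0.38 and 0.68.

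Of 42 translation factors 10 were called higher and 15 lower, and 1 was held higher, EIF3H (0.96), and 7 lower. EIF4G1, the scaffold of cap-dependent initiation, read 9.14, 8.79 and 9.51 in GR3KR with 15d-PGJ2, against 11.68, 11.69 and 11.63 in wtGR (5.76-fold lower, adjusted p = 2.37e-05), and a further probe gave -2.86. EIF5 (-5.06), EEF1D (-3.12) and EIF3G (-2.19) fell far more on GR3KR arrays 1 and 2. Without these arrays the values were -2.65, -0.71 and -1.36. The further kept EIF5 probes differed less, by -0.525, -0.913 and -1.35 over all arrays and by -0.392, -0.627 and -0.818 on array 3. With dexamethasone alone they gave -0.01, -0.856 and -1.3. Of 53 ribosomal protein genes 8 were called in each direction, with RPS7 (-4.46), RPS2 (-4.36) and RPL30 (-2.67) held lower and RPL13 (1.01) and RPL5 (0.71) higher; the mean of all RPL13 probes went the other way (-1.08), and RPS2 was -1.06 without arrays 1 and 2. Of 28 proteasome subunits 7 were called higher and 5 lower, beside 32.7% and 18.7% of all genes, PSMB4 held higher (1.17) and PSMC2 lower (-0.46). PSMC2 did not pass after median scaling (limma adjusted p = 0.112), with the 6 arrays with 15d-PGJ2 alone (0.0862) or with array weights (0.0828). Of 18 p53 targets 5 were called in each direction, beside the same shares of all genes, with SESN1 (1.64) and FAS (0.89) held higher and GADD45A (-1.15) lower.

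Of 37 measured Wnt, Notch and growth factor genes 16 were called higher and 7 lower, 9 and 3 of them held; after median scaling 8 were called higher and 11 lower. DKK3, a secreted Wnt modulator, read 8.0, 8.02 and 7.21 in GR3KR with 15d-PGJ2, against 5.86, 5.60 and 5.95 in wtGR (3.84-fold higher, adjusted p = 0.000252), with a further probe at 1.55. The ephrin EFNB2 (-1.71) was lower under both treatments, at -1.20 with dexamethasone alone. The BMP-responsive genes ID2 (-3.01) and ID3 (-3.23) were lower mainly on GR3KR arrays 1 and 2, with -1.66 and -1.21 without them. A further ID2 probe gave 0.01 over all arrays and -0.43 on array 3.

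**Figure D5:**
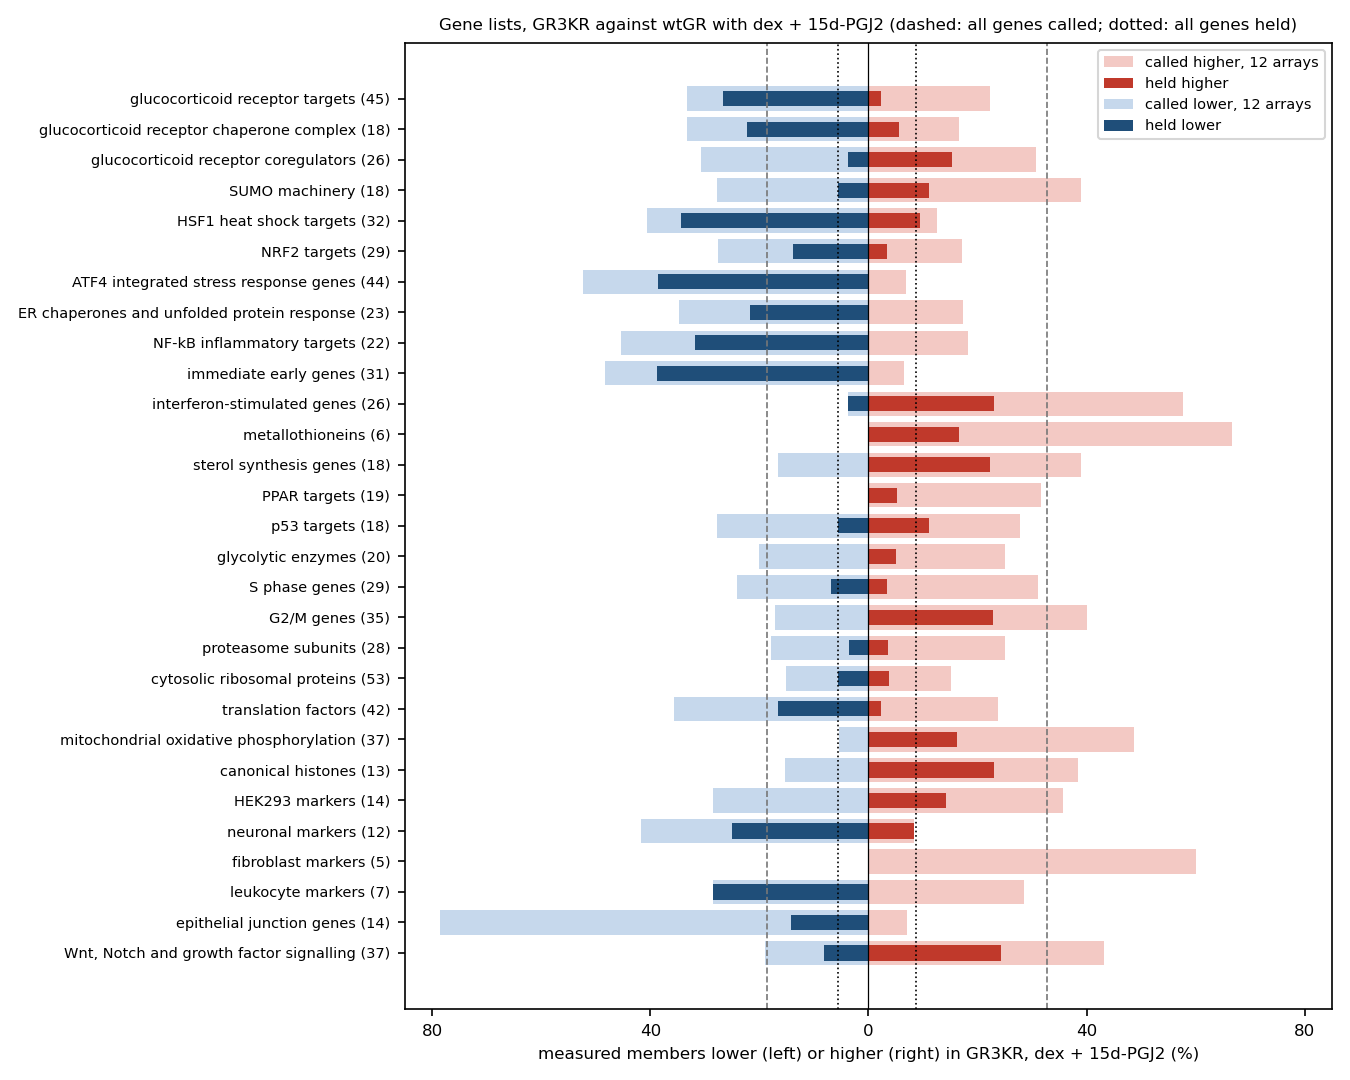
Share of measured members of each list (number in brackets) lower (left) or higher (right) in GR3KR with dexamethasone and 15d-PGJ2, in percent; pale bars are calls over 12 arrays and dark bars held genes. Dashed lines mark the calls over all genes (18.7% lower, 32.7% higher) and dotted lines the held genes (5.66% lower, 8.77% higher). ATF4, immediate early, heat shock and NF-kB lists have more than 30% of members held lower.

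Whether the line difference itself depended on the treatment was tested by the difference of both line differences. Over 12 arrays it passed for 2172 genes above 0 (17.6%) and 872 below 0 (7.07%), but for 24 without GR3KR 15d-PGJ2 arrays 1 and 2 (2834 at an unadjusted p under 0.05), with array 3 alone in its group, and 181 without these and wtGR dexamethasone array 3. The 24 passed in all 3 fits, and 23 of them were held, 20 below 0. Leaving out any 1 array gave 127 to 6502 such genes, the lowest without wtGR 15d-PGJ2 array 2 and the highest without GR3KR 15d-PGJ2 array 3. DNAJB1 had a term of -5.42 ± 1.06 (adjusted p = 0.0164, 0.0249 without the 2 arrays), HSPA7 of -2.45 ± 0.33 (0.00819 and 0.0431), FTL of -4.83 ± 1.11 (0.0216 and 0.036) and EIF4G1 of -2.61 ± 0.28 (0.00688 and 0.0249). HSPA6, at -2.29 ± 0.32, passed over 12 arrays (adjusted p = 0.00864) and without 3 arrays (0.0221) but not without 2 (0.0561), and IFIT1, at 2.14 ± 0.27, did the same (0.00714, 0.0383 and 0.0561).

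HBA1, an alpha-globin gene near-identical to HBA2, was lower in GR3KR under both treatments and more so with 15d-PGJ2. It read 4.57, 4.36 and 5.15 in GR3KR with 15d-PGJ2, against 7.88, 7.91 and 7.93 in wtGR, and 6.43, 6.51 and 6.67 in GR3KR with dexamethasone alone, against 7.68, 7.58 and 7.24 in wtGR. The term was -2.25 ± 0.29 (adjusted p = 0.00731). OLFML3, a secreted olfactomedin-like protein, read 7.09, 6.95 and 6.86 in GR3KR with 15d-PGJ2, against 4.81, 4.72 and 5.08 in wtGR, and had a term of 1.75 ± 0.21 (adjusted p = 0.00688); PHF8, a histone demethylase (1.94), and FRG1HP (1.62) were the others above 0. Below 0 were also the postsynaptic scaffold gene DLG4 (-3.70), the deadenylase subunit CNOT3 (-4.01), PIP4P1 (-5.23), R3HDM4 (-4.53), the citrate carrier SLC25A1 (-4.37) and the poly(A)-binding protein PABPN1 (-3.67). DLG4 read 5.62 on GR3KR array 3, against 8.62, 8.54 and 8.38 on the wtGR arrays with 15d-PGJ2, and CNOT3 read 5.92 on GR3KR array 3, against 8.73, 8.67 and 9.41 in wtGR.

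The largest terms among held genes were not all of this kind. CYBA, a subunit of NADPH oxidase (-7.05), PRMT1 (-6.89), the pseudogene PI4KAP1 (-6.63) and GPAA1 (-6.34), which attaches GPI anchors, led below 0. On wtGR dexamethasone array 3 all 4 were lower than on wtGR arrays 1 and 2, with shifts of -1.28, -4.00, -4.20 and -2.78 log2. Above 0 the largest were AS3MT, an arsenic methyltransferase (2.73), MIR98 (2.52), TMEM68 (2.52) and MAFA-AS1 (2.49), none of which passed without GR3KR arrays 1 and 2 (adjusted p of 0.0834 to 0.119).

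The largest losses are set here beside the same array, whose part in them was not tested. Of the 445 held lower genes not called with dexamethasone alone, 76 were at least 1 log2 lower on it than on wtGR arrays 1 and 2. Of the 12 largest held lower genes, 9 were at least 1 log2 lower on wtGR dexamethasone array 3 than on wtGR arrays 1 and 2: HDGFL2, PI4KAP1, PRMT1, SMG9, CYBA, LTBP3, DVL3, IL32 and SH3BGR; the others are LCP1, CRMP1 and HSPA6. CYBA read 5.75, 4.82 and 7.62 in GR3KR with 15d-PGJ2, against 12.06, 12.17 and 11.36 in wtGR, and 11.80, 11.12 and 10.18 in wtGR with dexamethasone alone. LTBP3, which binds latent TGF-beta, was undetected on all GR3KR arrays with 15d-PGJ2 and read 9.02, 9.67 and 9.91 in GR3KR with dexamethasone alone, against 8.27, 8.72 and 6.06 in wtGR. For DVL3, a Wnt signal carrier, the difference was -4.37 ± 0.73, and for SMG9, of nonsense-mediated decay, -4.52 ± 0.85; IL32, a cytokine, gave -3.71 ± 0.47, HDGFL2 -5.30 ± 0.77 and SH3BGR -3.70 ± 0.76. A further HDGFL2 probe differed by -2.05 over all arrays and by -0.73 on array 3.

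The 6 largest called losses over 12 arrays were AHCY, EEF1G, PGAM1, CYBA, DNAJB1 and CACYBP, and 3 of them were not held. AHCY, which hydrolyses adenosylhomocysteine, was held but read 4.74, 4.96 and 10.85 in GR3KR, against 12.83, 13.09 and 12.90 in wtGR: -6.09 over 12 arrays and -2.09 without arrays 1 and 2. EEF1G, an elongation factor subunit, read 7.01, 6.72 and 10.51 in GR3KR, against 14.18, 14.08 and 13.68 in wtGR, and was not called without arrays 1 and 2 (adjusted p = 0.123). PGAM1, a glycolytic enzyme, read 4.43, 4.42 and 6.72 in GR3KR, against 11.70, 11.82 and 9.45 in wtGR, and the HSP90-associated CACYBP 4.57, 4.92 and 5.91 in GR3KR, against 11.64, 11.72 and 8.95 in wtGR. All 3 were also low on wtGR dexamethasone array 3, with shifts of -4.61, -4.39 and -3.80 from arrays 1 and 2. The 6 largest gains were HSPA1A, GHR, ISL1, GSTM1, GSTM2 and CNTN1, all held.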

How the data were processed

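Illumina BeadChips with 47312 probes were read for 12 samples in 4 groups of 3. Per the file headers, the deposited table gives a bead signal (intensity) and a detection p-value for each probe and array; the authors also deposited a log2 table, for which the submitters' processing notes name lumi without a version. From the intensities, limma 3.58.1 (R 4.3.3) corrected background (neqc, offset 16, background inferred from the detection p-values), normalised by quantiles and took log2. Probes with a detection p under 0.01 on at least 3 of 12 arrays were kept (20909, of which 16339 have 1 gene symbol in the platform annotation). The kept probe with the highest mean stood for a gene, giving 12337 genes. List members among these genes are termed measured. One model of 4 group means over 12 arrays (lmFit and eBayes) gave the line difference under each treatment and their difference, with Benjamini-Hochberg adjustment over all genes. The fit was tested on simulated data. Where a group was not fully detected, folds are lower bounds, with undetected values raised to the lowest detected signal of that array.

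The members, the 29 gene lists and the rules were chosen with earlier results of these data known. Named by rule were 12 held genes in each direction ranked by the smaller difference of the fits with and without GR3KR arrays 1 and 2, the 6 largest called changes each way, up to 4 held members a list, the 4 largest interaction terms each way, and NR3C1. Named after their values were seen were the 12 lower genes called under both treatments, genes whose interaction passed in 3 fits, the further held list members, and HSPA7, ATF4, FKBP5, TSC22D3, PER1, SGK1, HSPA8, HSP90AB1, TAGLN, PDGFRA, CDH1, VIM, INA and SOX2. Replicate numbers of the groups with 15d-PGJ2 did not pair: their deviations correlated at 0.0151 to 0.0404. Other pairs of groups ran from -0.671 (wtGR 15d-PGJ2 and GR3KR dexamethasone arrays 2) to 0.705 (GR3KR and wtGR dexamethasone arrays 1). Between wtGR arrays with 15d-PGJ2 and with dexamethasone alone, the correlations were 0.664, -0.118 and 0.677 for arrays 1, 2 and 3. The doubted wtGR dexamethasone array 3 thus shared deviations with a compared array. The precision of each value is limited by the 3 arrays a group.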

Additional observations from a re-analysis of the deposited data

Results flagged for a closer look

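For 38 named held genes the line difference with 15d-PGJ2 differed from that with dexamethasone alone, over 12 arrays and again without GR3KR 15d-PGJ2 arrays 1 and 2 and wtGR dexamethasone array 3 (limma interaction term, adjusted p under 0.05 in both). Values in brackets are the term over 12 arrays in log2 units, GR3KR minus wtGR with 15d-PGJ2 minus the same with dexamethasone alone. Stress, iron and sodium channel genes were below 0: DNAJB1 (-5.42), FTL (-4.83), HSPA7 (-2.45) and SCNN1G (-1.18). So were genes of translation and messenger RNA handling: CNOT3 (-4.01), EIF3G (-2.23), EIF4G1 (-2.61), PABPN1 (-3.67), RPL30 (-2.89) and RPS2 (-4.71). Others below 0 were AHCY (-5.91), CLEC11A (-3.64), DLG4 (-3.70), DPF1 (-3.55), EMP3 (-2.97), ERF (-3.05), HSD17B7P2 (-1.79), PIP4P1 (-5.23), R3HDM4 (-4.53), SCAND1 (-4.89), SLC25A1 (-4.37) and UBTD1 (-3.62). Above 0 were FRG1HP (1.62), IFIT1 (2.14), OLFML3 (1.75) and PHF8 (1.94). Of genes that also differed between the lines with dexamethasone alone, HBA1 (-2.25) and HSPA6 (-2.29) were below 0. A further group was low on wtGR dexamethasone array 3 as well, by at least 1 log2: ACOT8 (-3.80), CYBA (-7.05), DVL3 (-4.79), GPAA1 (-6.34), HDGFL2 (-6.27), LTBP3 (-5.61), PI4KAP1 (-6.63), PRMT1 (-6.89), RPS7 (-4.33) and SMG9 (-6.01). The printed terms rest on 3 arrays a group. The other fit, chosen after seeing the data, leaves 1 GR3KR array with 15d-PGJ2, so its p-values hold no spread of that group. Without GR3KR 15d-PGJ2 arrays 1 and 2 alone, not all of the 38 passed. Some terms then shrank, such as AHCY (-1.91) and RPS2 (-1.41), and others changed little, such as PI4KAP1 (-6.59) and HSPA7 (-2.59). No cause was tested.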

How the results depend on the processing

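Of 145 named genes, all kept direction and call with the authors' deposited log2 table, an offset of 50, no filter and the replicate block, and 32 did with the number of detected probes as a covariate. Directions turned with that covariate for CLEC11A (0.15), PDGFRA (-0.00), RPS2 (0.47) and SLC25A1 (0.12), for ID2 among probes detected on all 6 arrays (0.01), and for RPL13 with the mean of all kept probes (-1.08). Calls were lost after median scaling for FAS, FRG1HP, LSS, MCM7, PPID and PSMC2, and after cyclic loess for LSS. Array weights lost those of HDAC2, LSS, MCM7, PIAS4 and PSMC2, and the 6 arrays with 15d-PGJ2 alone those of LSS, MCM7, PIAS4 and PSMC2. The mean of all kept probes lost those of HDAC2, MCM7, PTTG1 and TAGLN. With the covariate, line differences with 15d-PGJ2 numbered 81, those with dexamethasone alone 1757, interactions 0 (limma; 692 at an unadjusted p under 0.05) and held genes 79. Without GR3KR 15d-PGJ2 arrays 1 and 2 the first 3 were 2213, 2194 and 24, and without wtGR dexamethasone array 3 as well, an alternative chosen after seeing the data, 3269, 2150 and 181. Cyclic loess gave 1494 interactions, and median scaling 1340 with 1921 dexamethasone differences. Array weights gave 2128 dexamethasone differences and 3879 held genes, and the 6 arrays with 15d-PGJ2 alone 1049 held genes. Leaving out 1 array gave 4714 to 7837 line differences with 15d-PGJ2, 395 to 1785 with dexamethasone alone, 127 to 6502 interactions and 769 to 2570 held genes; an array left out leaves its group 2, and without GR3KR 15d-PGJ2 arrays 1 and 2 that group is 1 array, assumed to vary like the other groups. With the replicate block, line differences with 15d-PGJ2 numbered 6373 and held genes 1224. Replicate numbers did not pair the groups with 15d-PGJ2, while some arrays of other groups shared deviations by number. A BeadChip block was not run because the headers give no BeadChip. The causes of these changes were not tested. Genes near background, such as NR3C1, are limited by signal.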
